A study of Mus musculus with 16 samples.

Results

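Clone 8 and clone 4 are 2 clonal lines of the mouse cell line CRAFR26, and all 16 libraries of the data set entered their comparison, 8 of clone 8 and 8 of clone 4. The members were the libraries whose names carry each clone number, and the treatment was a covariate, so that differences present under every treatment could be told from those of a single treatment. The labels call the cells RSC. Both lines carry a kinase construct that 4-hydroxytamoxifen switches on, and both were kept in N2B27 with 2 µM of the Wnt secretion inhibitor IWP2, 1 µM of the MEK inhibitor PD03 and 1000 U/ml of LIF. Cells of every group then spent 48 h in 250 nM of the FGF receptor inhibitor PD17 in place of PD03. Group 0h received nothing more, groups 2h and 4h received 250 nM of 4-hydroxytamoxifen for 2 h or 4 h, and group rev received it for 4 h and then a MEK inhibitor for 2 h. Each group held 2 libraries of each clone. Each line is 1 clone, so a difference between them cannot be told apart from any other way in which the 2 lines differ. The labels do not say that libraries of a clone came from separate cultures, so p-values measure the spread between these libraries.

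Medium with LIF, a MEK inhibitor and a block of Wnt secretion holds mouse pluripotent cells in a rosette-like state, which lies between naive pluripotency, the state of the early epiblast, and primed pluripotency, the state that precedes gastrulation. Naive cells express Nanog, Klf4, Tfcp2l1 and Esrrb, while the formative and primed states bring up Otx2, the Zic genes and the de novo DNA methyltransferases. Pou5f1 and Sox2 mark all of these states. Clonal pluripotent lines are known to differ in imprinted gene expression, in DNA methylation, in chromosome dosage and in the share of cells that pass through a 2-cell-like state.

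Library totals ran from 4.31 to 10.4 M counts, and 1.30 to 5.46 M of these lay outside 8 mostly ribosomal features that took over 1% of all counts each. The rev library 1 of clone 8 stood apart, with 78.9% of its counts in those features. Between the clones the counts outside the features (exact permutation within groups, two-sided p = 0.424), the share held by the features (p = 0.566) and the share of mitochondrial messenger RNA (p = 0.182) did not pass a test, with adjusted values of 0.566, 0.566 and 0.546 over these 3 measures. These tests took all groups together, and within groups the clones went opposite ways. At 2h the features held 52.1% and 46.7% in clone 8 against 64.9% and 61.1% in clone 4. At rev they held 78.9% and 63.6% against 62.4% and 59.6%, so neither group overlapped. Counts outside them were 5.01 and 5.46 M against 3.02 and 2.96 M at 2h, and 1.30 and 2.94 M against 3.45 and 4.04 M at rev. Levels are CPM, the counts of a gene relative to the library's counts over tested genes after TMM scaling. They are not per gene length, so they are compared between libraries and not between genes. For each gene the lowest, median and highest of the 8 libraries of a clone are given, then the log2 difference (clone 8 minus clone 4) with its standard error and the adjusted p of edgeR's quasi-likelihood test. In bulk RNA, fewer cells that express a gene and less RNA of it per cell cannot be told apart.

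The 2 lines differed at 4445 of 12742 tested genes (34.9%), 2178 higher in clone 8 (17.1%) and 2267 lower (17.8%), at an adjusted p under 0.05. Scaling by library totals alone gave 2189 calls and raised the share of higher calls from 49.0% to 65.1%, so the balance of directions rests on the scaling. At least a 2-fold difference was seen in 836 of the called genes, 441 higher and 395 lower. A difference was counted as constant when the gene was called, when its size did not vary with treatment by the interaction test, and when both clone 8 libraries lay on the same side of both clone 4 libraries in each of the 4 groups. This held for 1405 genes, 789 higher in clone 8 (6.19% of tested genes) and 616 lower (4.83%). A constant difference keeps its direction, but an interaction test that did not pass does not show equal sizes in the 4 groups. Without the conditions on the tests, the libraries of the lines lay apart in all 4 groups for 968 genes above (7.6%) and 774 genes below (6.07%) in clone 8. The clone difference varied with treatment for 2401 genes (18.8%), 1108 of them among the called genes. Within a single group, 1489 genes were called at 0h (11.7%), 3876 at 2h, 3086 at 4h and 3125 at rev, with 2 libraries against 2, and 520 genes were called in every group with 1 sign. Without clone 4 library 1 of 4h the number that varied fell to 1517 and the number called at 4h to 1483. Calls at 0h fell to 651 without clone 4 library 2, to 758 without clone 8 library 1 and to 924 without clone 8 library 2 of that group.

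Among naive pluripotency genes, 6 of 14 were higher in clone 8 (17.1% of all genes were) and 4 were lower, with a list median of 0.19 against -0.01 over all genes. Nanog, the homeobox factor that stabilises the naive state, ran from 111 through a median of 344 to 432 CPM in clone 4 and from 404 through 543 to 722 CPM in clone 8. Its log2 difference was 0.93 ± 0.12 (edgeR adjusted p = 3.04e-06). The highest clone 4 libraries reached the lowest clone 8 library across treatments, but within each of the 4 groups both clone 8 libraries lay above both clone 4 libraries. Klf4, a LIF-responsive naive factor, ran from 18.0 through 58.4 to 70.3 CPM in clone 4 and from 90.2 through 115 to 158 CPM in clone 8, and the ranges did not overlap. Its difference was 1.23 ± 0.13 (edgeR adjusted p = 3.25e-07). Tfcp2l1, another factor downstream of LIF, ran from 112 through 244 to 308 CPM and from 361 through 402 to 455 CPM in clones 4 and 8, also without overlap, a difference of 0.90 ± 0.11 (edgeR adjusted p = 4.42e-06). Tbx3, a T-box factor of the same network, was the 1 naive gene with a constant difference, at 0.95 ± 0.09, between 59.9 and 152 CPM in clone 4 and between 156 and 246 CPM in clone 8. Prdm14, which represses FGF receptor signalling and de novo methylation, was higher by 0.97 ± 0.15.

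The size of these differences depended on treatment. For Nanog the difference was 0.63 at 0h, 0.77 at 2h, 1.65 at 4h and 0.73 at rev, and for Klf4 it was 0.78, 0.93, 2.08 and 1.32 (edgeR interaction adjusted p = 0.000217 and 2.24e-05). At 4h the mean of Nanog was 140.1 CPM in clone 4 and 436 CPM in clone 8, against 344 and 535 CPM at 0h. The widest gap for both genes therefore fell at 4h, where clone 4 held its lowest levels. At 4h, 10 of the 14 naive genes were called higher in clone 8 (12.6% of all genes were) and 1 lower, and at 0h 5 were higher (7.03%) and none lower (4.65%). The call at 4h came from only 2 libraries of each clone.

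Other naive genes went the opposite way or differed in single groups. Zfp42, also called Rex1 and a classic naive marker, was lower in clone 8 by 0.35 on the log2 scale, at -0.35 ± 0.07 (edgeR adjusted p = 0.00116). Nr5a2, an orphan receptor that activates Pou5f1, was lower at -0.55 ± 0.13, and Nr0b1, an orphan receptor encoded on the X chromosome, at -0.39 ± 0.09. Dppa3, a maternal-effect gene that protects methylation in the early embryo, was at -1.25 at 2h and -1.17 at rev but at 0.61 at 4h. The calls of Nr0b1, Nr5a2 and Dppa3 were lost in the 0h and 4h libraries alone, and Dppa3 turned there to 0.20. Esrrb, an orphan receptor of the naive network, passed narrowly at 0.31 ± 0.11 (edgeR adjusted p = 0.04) and lost the call in 8 of the 16 fits that left out 1 library; its difference was 0.96 at 4h and -0.02 at 2h. With scaling by library totals, Zfp42, Nr0b1, Dppa3 and Esrrb lost their calls. Klf2 (-0.13), Klf5 (0.17), Fbxo15 (0.16) and Dppa5a (0.20) did not pass.

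Of the general pluripotency genes, 3 of 13 were higher in clone 8 (17.1% of all genes were) and 4 lower (17.8%), with a median of 0.03. Pou5f1, which encodes Oct4, ran from 120.4 through 143 to 175 CPM in clone 4 and from 132 through 150.3 to 172 CPM in clone 8, a difference of 0.08 ± 0.07 that did not pass (edgeR adjusted p = 0.381). Sox2, its partner factor, ran from 201 to 241 and from 211 to 235 CPM (0.03 ± 0.05). Both genes overlapped fully between the lines. Lin28a, which blocks let-7 microRNAs and rises as cells leave the naive state, was lower in clone 8 by 1.14 on the log2 scale, with 25.4 to 93.3 CPM in clone 4 and 10.8 to 39.8 CPM in clone 8 and no overlap within any group. Constant differences were held by Tdgf1, a Nodal co-receptor (0.61 ± 0.06), by Zfp462, a zinc finger chromatin factor (-0.72 ± 0.07), and by Sall4, a zinc finger partner of Oct4 (-0.33 ± 0.07), whose call was lost with scaling by library totals. The neighbouring genes Dppa2 and Dppa4, whose products act as a pair at chromatin, went opposite ways, at 0.74 ± 0.10 and -0.38 ± 0.11.

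Formative and primed genes leaned towards clone 4, except at 0h. Of 25 listed genes 21 were tested, 12 were lower in clone 8 (17.8% of all genes were) and 2 higher, with a median of -0.23. At 0h the median was 0.01 with 2 higher and 4 lower, and at 4h it was -0.72 with 0 higher and 15 lower. Fgf5, Fgf8, Fgf15 and Car4 reached at most 8, 9, 9 and 13 counts in any library and were not tested. The keratin gene Krt18, which is also on the trophectoderm list below, was among the 12 lower genes. Otx2, the homeobox factor that drives exit from naive pluripotency, ran from 8.29 through 13.2 to 15.9 CPM in clone 4 and from 4.18 through 5.94 to 11.1 CPM in clone 8. Its difference was constant at -0.95 ± 0.14 (edgeR adjusted p = 2.76e-05). Lef1, a Wnt effector, was constant at -2.00 ± 0.23, between 2.72 and 5.87 CPM in clone 4 and between 0.351 and 2.45 CPM in clone 8. Grhl2, an epithelial factor of formative enhancers, was constant at -1.76 ± 0.32 with low levels in both lines (1.56 to 9.33 and 0.421 to 1.79 CPM).

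Zic2 and Zic5, neighbouring zinc finger genes of the primed epiblast, were lower in clone 8 in all groups but by unequal amounts. Zic2 ran from 48.4 through 59.2 to 114 CPM in clone 4 and from 18.9 through 27.3 to 35.1 CPM in clone 8, a difference of -1.31 ± 0.10 (edgeR adjusted p = 7.63e-09) without overlap. Within groups it was -1.66 at 2h and -0.72 at 4h. The de novo methyltransferase gene Dnmt3b was lower at -1.04 ± 0.14 and its cofactor Dnmt3l at -0.93 ± 0.17, the latter with 0.01 at 0h and -1.75 at rev. Dnmt3a, the other de novo enzyme, was at -0.03 ± 0.10 over all groups and at -0.66 at 4h. Sox3, a SoxB1 factor, and Foxd3, a forkhead factor, were higher in clone 8 at 1.06 ± 0.40 and 0.48 ± 0.12; Sox3 stayed at or under 3.33 CPM in every library and lost its call in 13 of the 16 fits without 1 library.

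**Figure D1:**
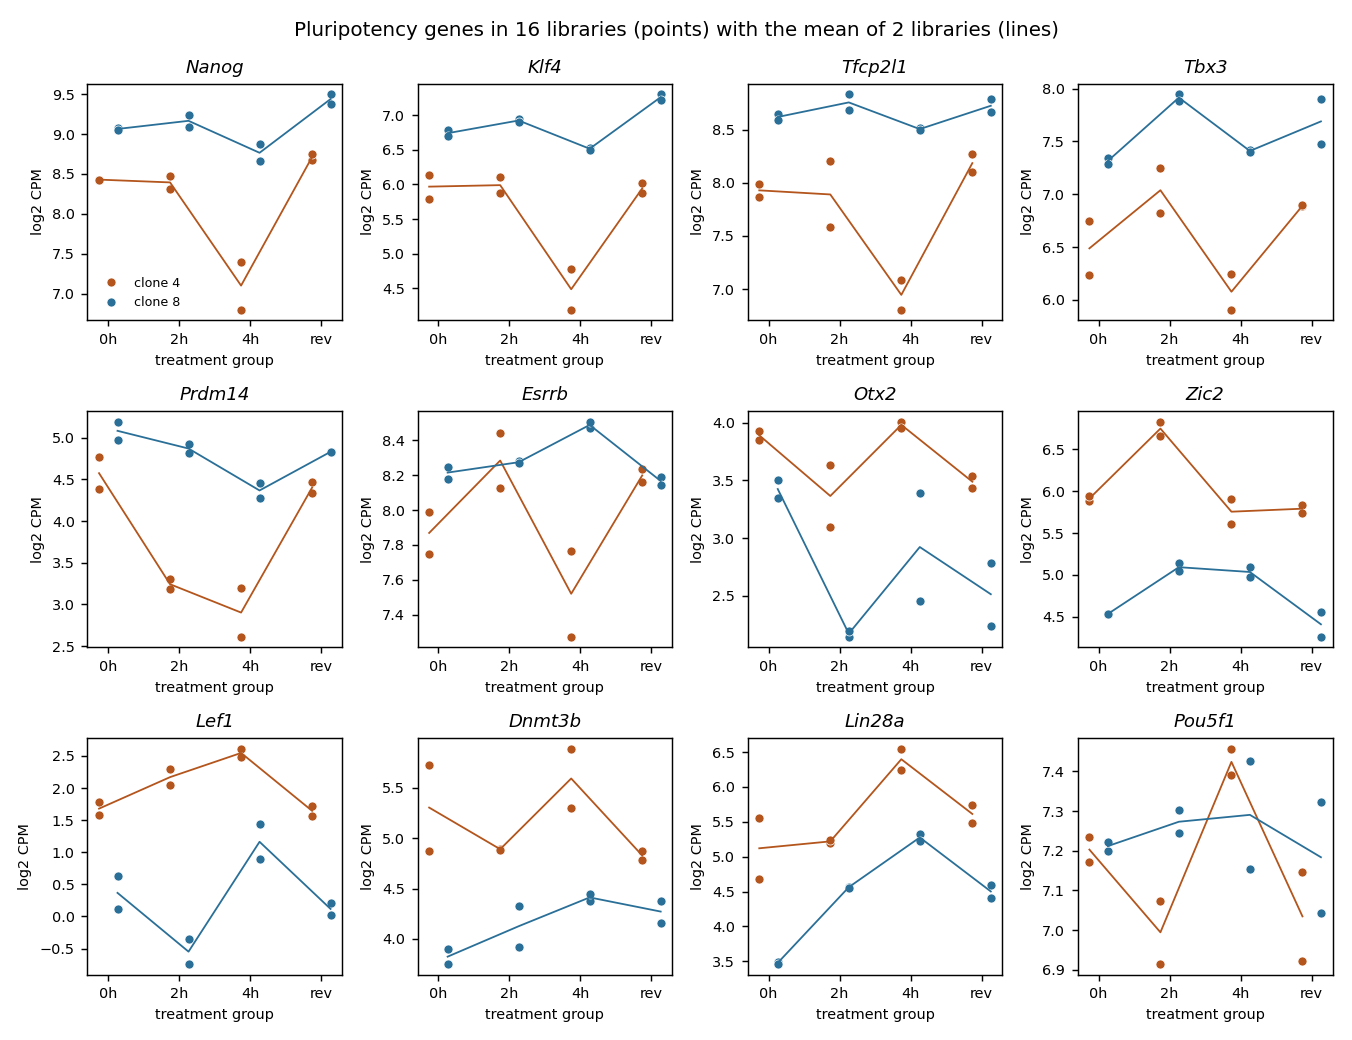
Log2 CPM (vertical axes) of 12 pluripotency genes in the 4 treatment groups (horizontal axes), 1 point per library, clone 4 in brown and clone 8 in blue, with lines through the mean of 2 libraries. Nanog, Klf4, Tfcp2l1, Tbx3 and Prdm14 lie higher in clone 8 and Zic2, Lef1, Dnmt3b, Lin28a and Otx2 higher in clone 4 in all 4 groups, while Pou5f1 overlaps.

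Genes of the 2-cell-like state, a rare and transient state of pluripotent cells in which genes of the 2-cell embryo are transcribed, were higher in clone 8. Of 20 listed genes 12 passed the count filter, and 11 of these stayed at or under 9 counts in every clone 4 library, so that they passed through clone 8 and a tally over them carries no weight. With a minimum count of 50 the list held 0 called genes. Their values are given as a description, with Zfp820, the gene that reached the minimum in both lines, at 0.17 and not called. Zscan4d, a SCAN zinc finger gene that marks the state (chromosome 7, 11161374 to 11166159 on the minus strand of GRCm38), ran from 0 through 0.346 to 0.533 CPM in clone 4 and from 1.72 through 4.41 to 9.19 CPM in clone 8. Its difference was 4.25 ± 0.34 (edgeR adjusted p = 1.16e-08), and the ranges did not overlap. Usp17le, one of a family of deubiquitinases of the same state (chromosome 7, 104768049 to 104777470, minus strand), ran from 0 through 0.308 to 0.519 CPM and from 1.58 through 6.82 to 10.9 CPM, a difference of 4.42 ± 0.25 (edgeR adjusted p = 1.19e-10). Tmem92, a membrane protein gene on another chromosome, was higher at 3.12 ± 0.30 and Zfp352, a zinc finger gene of the 2-cell embryo, at 3.54 ± 0.53. Clone 4 held 5 counts of Usp17le at most in a library, so these fitted differences depend on the prior count.

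Levels in clone 8 differed between the treatment groups. Zscan4d had means of 2.00 CPM at 0h, 9.05 at 2h, 3.60 at 4h and 6.92 at rev in clone 8, and of 0.351, 0.195, 0.521 and 0.161 CPM in clone 4. The sum over the 12 tested genes was 12.5 to 20.3 CPM in clone 4 and 32.5 to 94.4 CPM in clone 8. As 11 of them passed the filter through clone 8, this gap carries no weight either. These genes lie in clusters of near-identical copies, so counts of single copies are uncertain. RefSeq's promoter table (GRCm38.p6) held 8 of the 12 tested genes. The 250 bases upstream of RefSeq's start of 2 pairs of copies show how close they are. By the GENCODE coordinates used for genes elsewhere, the Zscan4d and Usp17la stretches reach a few bases into the gene. Capitals mark bases unlike those aligned in the first of each pair.
Zscan4c: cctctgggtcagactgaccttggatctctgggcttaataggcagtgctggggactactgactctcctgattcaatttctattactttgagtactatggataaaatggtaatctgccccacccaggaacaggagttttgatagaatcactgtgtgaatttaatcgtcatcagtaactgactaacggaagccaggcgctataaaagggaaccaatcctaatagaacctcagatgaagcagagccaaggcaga
Zscan4d: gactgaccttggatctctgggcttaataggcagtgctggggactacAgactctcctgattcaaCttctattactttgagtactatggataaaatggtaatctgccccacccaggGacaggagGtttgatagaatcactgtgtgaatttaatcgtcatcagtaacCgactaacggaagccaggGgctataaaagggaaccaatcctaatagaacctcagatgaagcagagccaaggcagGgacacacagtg
Usp17la: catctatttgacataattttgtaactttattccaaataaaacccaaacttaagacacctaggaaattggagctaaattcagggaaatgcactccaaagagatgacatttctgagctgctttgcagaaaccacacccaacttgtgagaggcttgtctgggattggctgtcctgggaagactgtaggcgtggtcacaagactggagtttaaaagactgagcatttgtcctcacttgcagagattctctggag
Usp17lc: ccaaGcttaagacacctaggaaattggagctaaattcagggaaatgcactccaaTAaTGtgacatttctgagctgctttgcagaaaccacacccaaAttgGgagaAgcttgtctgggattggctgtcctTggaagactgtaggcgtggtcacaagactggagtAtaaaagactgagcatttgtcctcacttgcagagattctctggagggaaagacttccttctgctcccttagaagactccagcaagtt
The Zscan4c sequence lies at chr7:11005495-11005744 on the plus strand and that of Zscan4d at chr7:11166149-11166398 on the minus strand, and 232 of their 239 aligned bases (97.1%) were identical. The Usp17la sequence lies at chr7:104856766-104857015 and that of Usp17lc at chr7:103416446-103416695, both on the plus strand, with 198 of 208 aligned bases identical (95.2%). Between Zscan4c and Usp17la the longest shared run was 7 bases. The differences of Zscan4c (3.55 ± 0.32), Zscan4a (3.51 ± 0.30), Usp17la (4.18 ± 0.24) and Usp17lc (3.72 ± 0.39) are those of single copies and carry this uncertainty.

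Several genes of the trophectoderm list, which mark the outer lineage of the blastocyst, were lower in clone 8. Of 11 tested members 4 stayed at or under 8 counts in every clone 8 library and so passed the filter through clone 4. Over all groups, 4 of the other 7 were lower (17.8% of all genes were) and none higher. Within groups the directions were less uniform. Among all 11, those 4 included, 2 were higher at 0h (7.03% of all genes were) and 3 lower (4.65%). Higher and lower calls were 0 and 9 at 2h (13.9% and 16.5%), 0 and 7 at 4h (12.6% and 11.6%) and 1 and 8 at rev (12.3% each). The keratin gene Krt7, one of those 4 that passed through clone 4 with Krt19, Hand1 and Plac1, ran from 0.508 through 2.67 to 4.80 CPM in clone 4 and from 0 through 0.206 to 0.908 CPM in clone 8, with a constant difference of -3.07 ± 0.29 (edgeR adjusted p = 8.31e-08). Krt19 was constant at -3.31 ± 0.27, Hand1, a placental helix-loop-helix factor, at -2.23 ± 0.28 and Plac1, a placental gene of the X chromosome, at -3.43 ± 0.41. The keratin partners Krt8 and Krt18 were at -2.44 ± 0.23 and -2.66 ± 0.22. Krt18 varied with treatment, with means of 2.58, 16.01, 7.07 and 19.6 CPM at 0h, 2h, 4h and rev in clone 4 against 1.32, 2.07, 1.06 and 2.23 CPM in clone 8, and its difference at 0h was -0.91, which did not pass. The defining trophoblast factors Cdx2 and Elf5 reached at most 7 and 4 counts in any library and were not tested. The summed level of the tested members was 84.6 to 162.6 CPM in clone 4 and 65.4 to 98.1 CPM in clone 8. It overlapped between the lines.

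Imprinted genes, which are transcribed from 1 parental copy under the control of DNA methylation, were mostly lower in clone 8. Of 39 tested genes 22 were lower (17.8% of all genes were) and 3 higher (17.1%), with a median of -0.32. Their summed level was 1423 to 2242 CPM in clone 4 and 1009 to 1157 CPM in clone 8. H19, a maternally expressed RNA (chromosome 7, 142575529 to 142578143, minus strand), ran from 38.0 through 69.5 to 116 CPM in clone 4 and from 0.862 through 2.97 to 5.47 CPM in clone 8, a difference of -4.59 ± 0.12 (edgeR adjusted p = 1.31e-15). The paternally expressed growth factor gene Igf2 beside it ran from 4.20 through 22.9 to 44.8 CPM and from 0.718 through 2.70 to 4.14 CPM, with a constant difference of -3.15 ± 0.15 (edgeR adjusted p = 1.42e-11). Neither gene overlapped between the lines. Both members of this reciprocally imprinted pair were thus lower in clone 8; 64.5% of the Igf2 exon sequence is shared with overlapping models, so its count is uncertain. Paternally expressed Peg10 (-2.79 ± 0.12) and Peg3 (-1.93 ± 0.13) and maternally expressed Phlda2 (-2.23 ± 0.22) and Meg3 (-1.57 ± 0.14) were lower in clone 8. In the Meg3 cluster, Mirg and the paternally expressed Rtl1 were constant at -1.36 ± 0.19 and -1.75 ± 0.24. Kcnq1ot1 (-1.11 ± 0.13) and Snrpn (-0.98 ± 0.08) were constant too, and Peg12 was constant in the opposite direction, at 1.00 ± 0.18.

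Levels of several of these genes also differed between the treatment groups in both lines, and the cause was not tested. In clone 4, Igf2 had means of 5.36, 42.3, 7.97 and 40.2 CPM at 0h, 2h, 4h and rev, and in clone 8 of 0.930, 4.12, 1.44 and 3.61 CPM, so that the means at 2h and rev stood above those at 0h and 4h in each line. For H19 and Krt18 too, the means at 2h and rev stood above those at 0h and 4h in both lines.

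Rhox5, an X-linked homeobox gene that DNA methylation silences in many cells (chromosome X, 37804842 to 37808876, plus strand), ran from 37.9 through 47.5 to 70.9 CPM in clone 4 and from 4.54 through 8.98 to 14.3 CPM in clone 8. Its difference was nearly the same in all groups, at -2.25, -2.36, -2.38 and -2.54, and -2.38 ± 0.09 over all (edgeR adjusted p = 1.03e-12). Of 16 tested germline genes known to respond to methylation, 7 were lower in clone 8 (17.8% of all genes were) and 2 higher (17.1%). The list median was -0.31. Rhox6 and Rhox9, from the same cluster as Rhox5, were at -1.58 and -1.50. Nrk, an X-linked kinase of the placenta, was constant at -2.78 ± 0.15 and Pnma5, a retroviral gag-like gene, at -2.06 ± 0.11. Neither range overlapped. Among Y-linked genes 3 of 5 were lower (17.8% of all genes were). Zfy1 was at -1.83 ± 0.21, Eif2s3y at -0.57 ± 0.07 and Uty at -0.31 ± 0.10. Eif2s3y ran from 33.0 to 40.3 CPM in clone 4 and from 19.8 to 26.6 CPM in clone 8, so both lines expressed the Y chromosome.

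**Figure D2:**
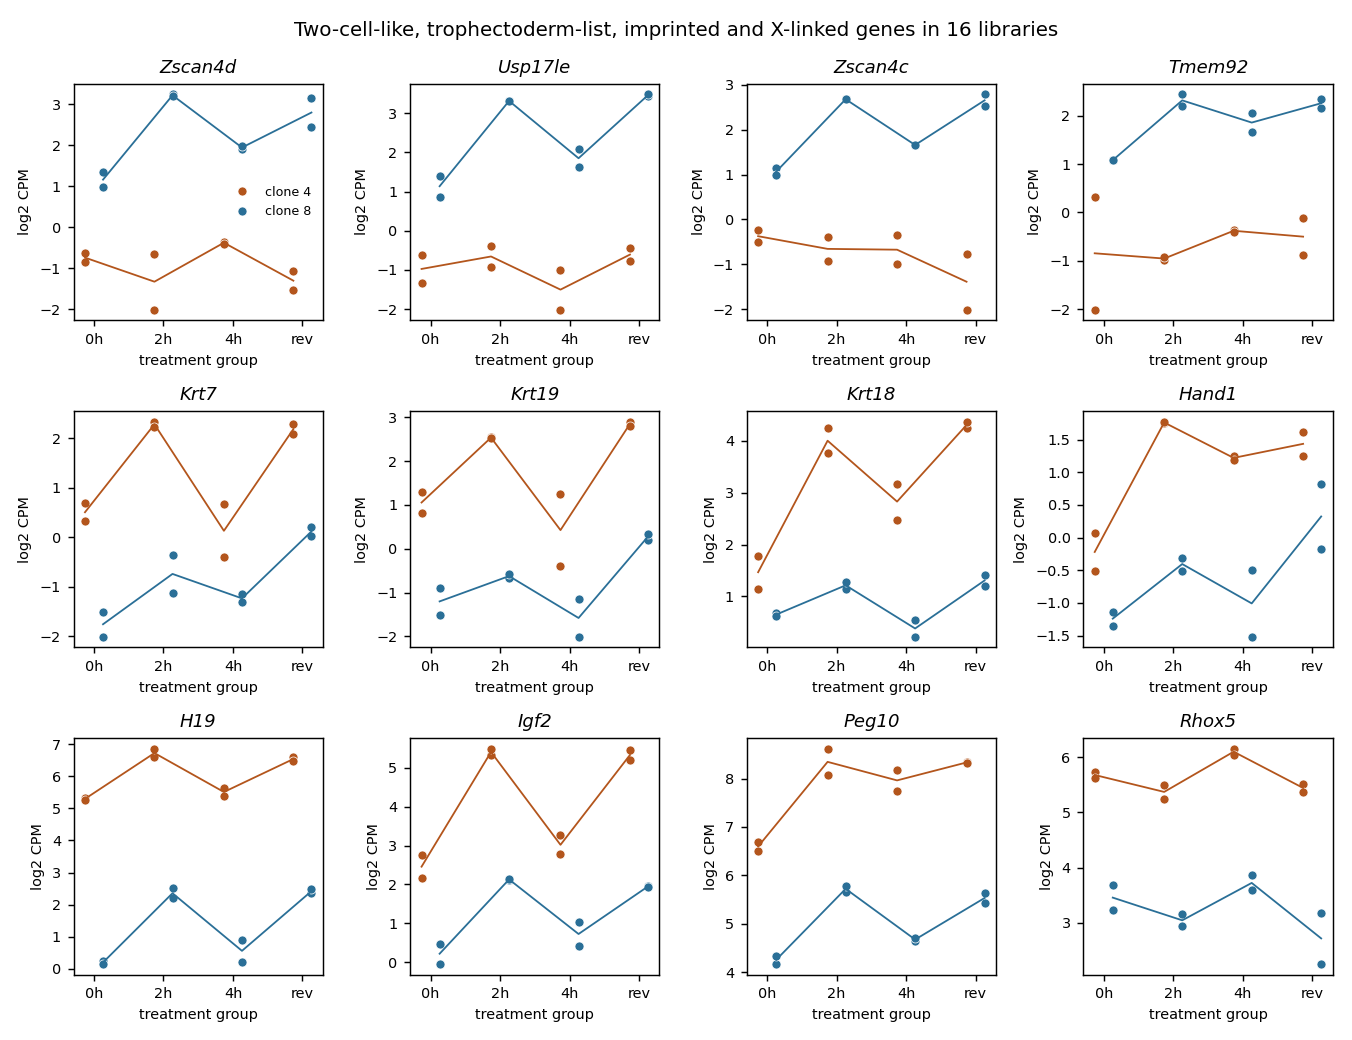
Log2 CPM of 12 genes in the 4 treatment groups, 1 point per library, clone 4 in brown and clone 8 in blue, with lines through the mean of 2 libraries; libraries with 0 counts sit near -2 because of the prior count. The first row, of 2-cell-like genes, lies higher in clone 8, and the other rows, of trophectoderm-list, imprinted and X-linked genes, lie higher in clone 4.

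Other large constant differences were held by genes of varied roles. In clone 8 the basement membrane gene Lama4 was higher at 2.39 ± 0.19, from 0.606 through 1.33 to 2.67 CPM in clone 4 and from 5.75 through 6.67 to 9.95 CPM in clone 8. Fbn1, the fibrillin-1 gene, was higher at 2.27 ± 0.19 and Igfbp7, a secreted binding protein, at 3.10 ± 0.26. Cbln1, a synaptic organiser, ran from 0.80 through 2.54 to 3.60 CPM and from 11.6 through 14.2 to 16.5 CPM (2.61 ± 0.16, edgeR adjusted p = 3.39e-10). Hal, a histidine-degrading enzyme, Pirt, a regulator of sensory channels, the glycosyltransferase gene Galnt16, the adaptor gene She and Ptges, a prostaglandin synthase, were higher at 2.71, 2.68, 2.24, 2.21 and 2.17. None of these genes overlapped between the lines. Sizes could still differ between groups. At 0h, 2h, 4h and rev, Igfbp7 was at 2.11, 4.05, 2.17 and 3.67 and Pirt at 3.32, 2.26, 3.63 and 1.58. The values of Fbn1 lay closer together, at 2.14, 2.61, 2.30 and 2.02.

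In the opposite direction, Fgfbp1, a carrier that releases FGF from the matrix, was constant at -2.84 ± 0.17, with 1.40 through 17.3 to 22.3 CPM in clone 4 and 0 through 2.39 to 3.02 CPM in clone 8. Tinagl1, a matricellular protein gene, was at -2.35 ± 0.22, Ephx2, an epoxide hydrolase, at -1.78 ± 0.13, the splicing factor gene Rbm20 at -1.74 ± 0.16 and Vill, a villin-like gene, at -1.47 ± 0.23. Ddx58, which encodes the RNA sensor RIG-I, was at -1.86 ± 0.14. Phf19, an accessory subunit that guides Polycomb repressive complex 2, ran from 8.25 through 17.2 to 29.4 CPM in clone 4 and from 1.82 through 3.67 to 9.34 CPM in clone 8 (-1.94 ± 0.11, edgeR adjusted p = 1.32e-10). The ranges overlapped over all libraries and not within a group. Of 12 tested genes of this complex 7 were lower in clone 8 (17.8% of all genes were) and 2 higher (17.1%), but with scaling by library totals 1 was called, lower; the catalytic subunit gene Ezh2 was constant at -0.28 ± 0.06.

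Some genes were at most at 3 counts in every library of 1 line. Of 12742 tested genes, 20 were such genes in clone 4 and 6 in clone 8. Each could pass the count filter only through the other line. Clone 8 also had more pooled counts, as 3 counts equalled 0.0525 CPM in clone 4 and 0.0419 CPM in clone 8. The tally of 20 against 6 therefore carries no weight. Pooled over libraries, the predicted gene Gm8994 had 9 counts in clone 4 and 614 in clone 8, a ratio of pooled CPM of 54.4 with an exact 95% interval of 28.5 to 119.6. Usp17la had 18 and 439 counts, a ratio of 19.5 (12.2 to 33.1). In the other direction Zfp36l3, an X-linked placental RNA-binding protein gene, had 123 counts in clone 4 and 6 in clone 8, a ratio of 25.7 (11.5 to 71.4), and Syna, a placental envelope gene that fuses trophoblast cells, had 80 and 9 (11.1, from 5.58 to 25.2). The intervals cover counting error only. These genes were picked for their low counts in 1 line, so the ratios are given as a description.

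Genes of the primitive endoderm list, the inner lineage that lays down the first basement membrane, were compared next. Of 8 tested members 5 were higher in clone 8 (17.1% of all genes were) and 1 lower, with a median of 0.49 that was -0.19 at 4h. The collagen IV genes Col4a1 and Col4a2 were constant at 1.15 ± 0.08 and 1.13 ± 0.11, and Col4a1 ran from 16.8 through 28.4 to 40.6 CPM in clone 4 and from 35.1 through 59.2 to 81.0 CPM in clone 8. The laminin genes Lama1 and Lamb1 were higher at 1.00 ± 0.13 and 0.66 ± 0.18, although Lamb1 was at -0.46 at 4h. Of the defining transcription factors, Gata6, Sox17 and Sox7 reached at most 10, 9 and 20 counts in a library and were not tested, and Gata4 was at 0.03 ± 0.19 and did not pass. The receptor gene Pdgfra was lower at -0.74 ± 0.22. Sparc, which encodes a matrix-binding protein, was higher at 0.32 ± 0.07. Of the mesoderm list 4 of 12 genes could be tested and of the fibroblast list 1 of 12; Evx1, a streak homeobox gene, was constant at -2.04 ± 0.23 and Vim was at -0.65.

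Genes of epithelial polarity and lumen formation, which rosettes organise around, went both ways, with 5 of 26 higher (17.1% of all genes were) and 6 lower (17.8%), near the shares over all genes, and a median of 0.04. Ocln, a tight junction gene, ran from 0.267 through 0.795 to 2.46 CPM in clone 4 and from 2.76 through 4.54 to 5.40 CPM in clone 8, with a constant difference of 2.01 ± 0.22 (edgeR adjusted p = 6.11e-07). Cdh1, the E-cadherin gene, ran from 221 through 237 to 302 CPM and from 377 through 404 to 448 CPM, constant at 0.73 ± 0.05, and the laminin receptor gene Itga6 was constant at 0.60 ± 0.07. The actin nucleator gene Cobl was higher at 1.39 ± 0.13. Podxl, which coats the rosette lumen, was lower, from 27.0 through 31.9 to 53.7 CPM in clone 4 and from 7.57 through 12.4 to 14.5 CPM in clone 8 (-1.58 ± 0.11). Ocln, Cdh1, Itga6, Cobl and Podxl did not overlap between the lines in any library.

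In the LIF and STAT3 pathway, which sustains naive factors, 8 of 19 genes were higher in clone 8 (17.1% of all genes were) and 2 lower (17.8%), with a median of 0.15, and with scaling by library totals 5 were higher and 1 lower. The receptor gene Lifr (0.21 ± 0.08), the kinase gene Jak2 (0.56 ± 0.13, constant), Stat3 (0.30 ± 0.09) and the targets Socs3 (0.38 ± 0.10) and Pim1 (0.34 ± 0.08) were higher besides Klf4 and Tfcp2l1. Socs2, a feedback gene, was lower at -0.90 ± 0.11. The differences of Stat3 were -0.13 at 0h and 0.73 at 4h, so this gene was not apart in every group.

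**Figure D3:**
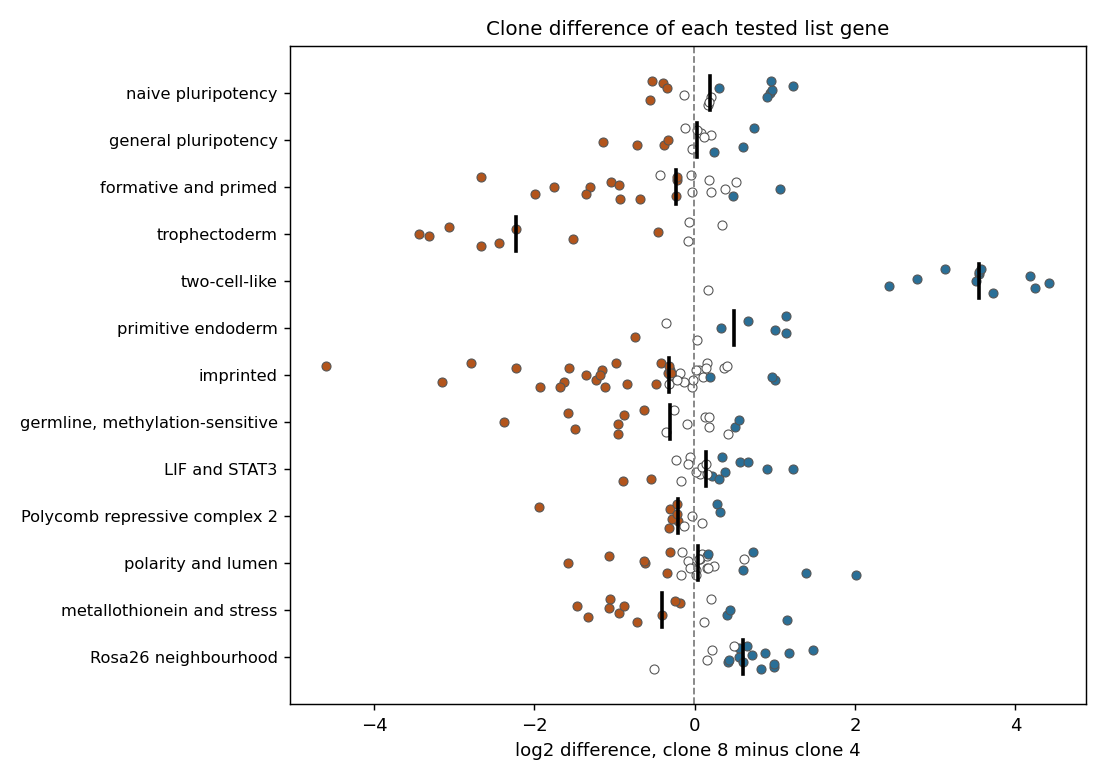
Log2 difference (clone 8 minus clone 4, horizontal axis) of each tested member of 13 gene lists (rows); filled points passed the test, blue when higher and brown when lower in clone 8, open points did not, black bars are list medians and the dashed line is the median of all genes. Members of the 2-cell-like and trophectoderm lists and H19 of the imprinted list lie far from the line. Of the 2-cell-like list 11 of 12 members passed the filter only through clone 8, and of the trophectoderm list 4 of 11 only through clone 4.

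The kinase pathway that the construct feeds was compared too. Esr1, the estrogen receptor gene, ran from 10.6 through 18.7 to 23.5 CPM in clone 4 and from 3.31 through 7.09 to 10.6 CPM in clone 8, with a constant difference of -1.33 ± 0.10 (edgeR adjusted p = 7.56e-09). Kinases that tamoxifen switches on commonly carry part of an estrogen receptor, and whether reads of the construct were counted at Esr1 was not tested. Of 24 tested ERK feedback and immediate-early genes, 15 were lower in clone 8 (17.8% of all genes were) and none higher. With scaling by library totals 7 were lower and 2 higher, so this count rests on the scaling. The difference varied with treatment for 17 of the 24: the list median was 0.28 at 0h, -0.48 at 2h, -0.999 at 4h and -0.02 at rev. Egr1, an immediate-early factor, was at -0.65 at 0h and at -3.08 at 4h. Within the cascade 8 of 30 genes were higher (17.1% of all genes were) and 10 lower (17.8%), and with scaling by library totals 5 were higher and 2 lower. The receptor gene Fgfr2 was lower at -1.84 ± 0.19 and the scaffold gene Ksr1 was constant at 0.87 ± 0.11.

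The clone differences were not spread evenly over the genome. Of 210 windows of 10 Mb with at least 20 tested genes, 10 had a median log2 difference beyond 0.3 in either direction. Of these, 9 lay in 3 segments of chromosomes 3 and 6, which were picked after the windows were seen. The other, on chromosome 2 from 60 Mb, had a median of 0.37 over 25 genes, 13 higher and 3 lower. The next window on chromosome 2 had a median of 0.25 over 44 genes, 18 higher and 4 lower. On chromosome 6 beyond 110 Mb, 152 of 237 genes were higher in clone 8 (17.1% of all genes were) and 7 lower (17.8%). Their median was 0.49, and before 110 Mb the median was 0.02 over 387 genes. On chromosome 3 the 98 genes between 110 and 140 Mb had a median of -0.47, with 60 lower and 10 higher, and the 48 genes beyond 140 Mb had a median of 0.83, with 40 higher and 1 lower. As folds these medians are 1.41, 0.723 and 1.78. They kept 1 sign in every group, between 0.49 and 0.59 on chromosome 6, between -0.52 and -0.33 and between 0.74 and 0.94 on the segments of chromosome 3. Of whole chromosomes, Y had a median of -0.44 over 6 genes, between -0.66 and -0.28 within the groups. The mitochondrial genome had a median of -0.24, with 2 of 11 genes called, and its medians were -0.0042 at 0h, -0.66 at 2h, -0.080 at 4h and -0.25 at rev.

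The segments held 383 tested genes, 3.01% of all, and 158 of the 1405 constant differences, 11.2%. They were picked by their window medians, so this larger share carries no weight. Nanog, Dppa3 and Gdf3 lie in the chromosome 6 segment and Lef1 in the segment of chromosome 3 between 110 and 140 Mb. The segment of chromosome 6 also holds the Rosa26 locus, a common site for transgenes. Of 17 tested genes around it 13 were higher in clone 8, 9 of them constantly, and none lower. Over all genes 17.1% were higher, and in the segment 64.1%. The median around the locus was 0.60, and Gt(ROSA)26Sor itself was at 0.22 ± 0.23. Tada3, a histone acetyltransferase subunit gene there, ran from 39.4 through 44.0 to 52.9 CPM in clone 4 and from 69.3 through 80.5 to 99.9 CPM in clone 8 (0.83 ± 0.07). The difference of Nanog (0.93) was above the segment median of 0.49, and Dppa3 (-0.53) went against it. Klf4, Tfcp2l1, Tbx3, Prdm14, Otx2 and Zic2 lie on other chromosomes. Copy number was not measured, so dosage and regulation of these segments cannot be told apart.

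**Figure D4:**
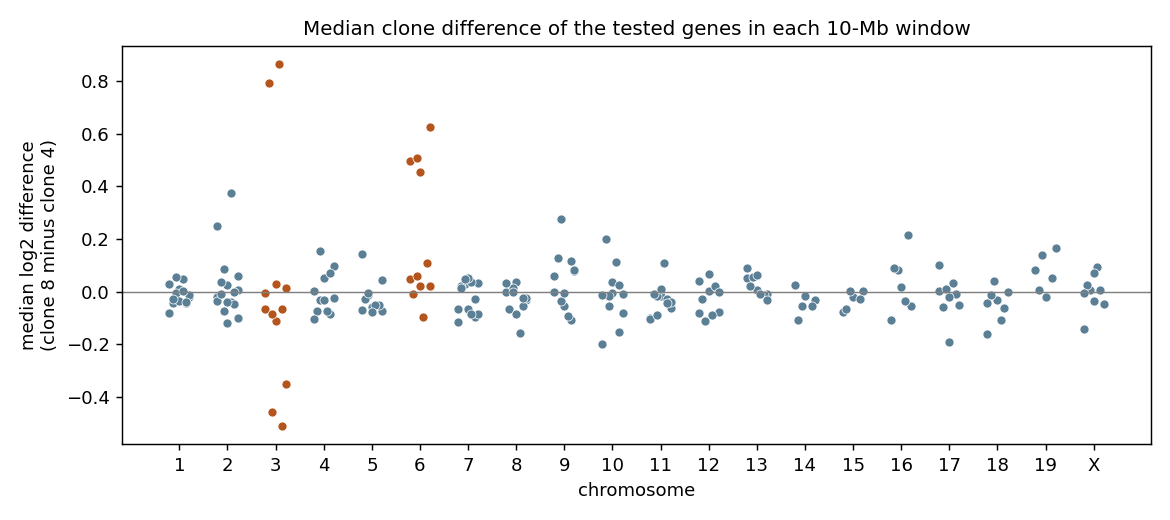
Median log2 difference (clone 8 minus clone 4, vertical axis) of the tested genes in each 10-Mb window with at least 20 of them, by chromosome (horizontal axis), with the windows of chromosomes 3 and 6 in brown. Most windows lie close to 0, and windows of chromosomes 3 and 6 lie farthest from it in both directions.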

How the data were processed

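Libraries were made after depletion of ribosomal RNA, per the labels' protocols. The authors deposited 1 table of raw counts, whole numbers for 52636 gene IDs in 16 libraries. The submitters' processing notes name the build mm10, bcl2fastq 2.19.1 and STAR 2.5.3a; the counting program, annotation and strand setting are not given in the sources used here, so counts of overlapping and antisense genes and of near-identical copies are uncertain. Symbols and coordinates come from GENCODE M21 on GRCm38 by gene ID (52489 matched, 147 did not), and sequences from RefSeq. Samples were grouped by their titles.

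Genes were filtered with filterByExpr by treatment group (minimum count 10, minimum total 15) and scaled by TMM. The main test was edgeR 4.0.16 (quasi-likelihood, R 4.3.3) with treatment and clone as terms, Benjamini-Hochberg adjusted over 12742 genes. Interaction (3 degrees of freedom) and within-group differences came from a model of the 8 combinations of clone and treatment. A standard error is the log2 difference divided by the square root of F. CPM are relative to the counts of the tested genes, and plotted log2 CPM used a prior count of 2. Upstream sequences were aligned with Biopython 1.88, with free end gaps. Pooled ratios of genes with at most 3 counts in every library of a line have exact 95% intervals; such intervals cover counting error only, since reads counted without molecular identifiers can be copies of 1 molecule. With 3 counts as the floor, the lowest level resolved was 0.21 to 0.908 CPM by library. No library repeated another: the chi-square between replicates was 1.30 to 4.16 times its degrees of freedom.

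Named genes were, in each direction, the 12 constant differences of largest size with at least 50 mean counts in the higher line and no predicted-gene name, up to 6 genes at most at 3 counts in 1 line, tested members of the 3 pluripotency lists, Esr1 and called members of the ERK cascade, and up to 3 called members of each other list; other genes named were chosen after their values were seen, and some genes the rule covers are not reported here. The members and all 31 gene lists were chosen with earlier results of these data known. On simulated counts (12417 genes, clone 8 against clone 4) the test recovered 56 of 67 changes of 1.5-fold, 66 of 67 of 2-fold and 66 of 66 of 4-fold, with 10 false calls. Alternatives were other scaling (size factors, library totals), DESeq2 1.42.0, other count filters, a replicate block, averaged within-group differences, features above 1% removed, pairs of groups alone, stricter thresholds, thinning to 1.30 M counts and leaving out each library.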

Additional observations from a re-analysis of the deposited data

Results flagged for a closer look

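The clone difference varied with treatment for 2401 genes by the interaction test, among them the following 30 of the tested pluripotency-list genes. In the naive list the edgeR adjusted p was 0.000217 for Nanog, 2.99e-05 for Klf2, 2.24e-05 for Klf4, 0.000144 for Esrrb, 0.000629 for Tfcp2l1, 3.37e-05 for Prdm14, 0.00429 for Nr0b1, 1.06e-07 for Dppa3, 0.000129 for Nr5a2 and 0.00179 for Fbxo15. Klf2, a Krüppel-like factor of the naive network, was lower in clone 8 at 2h (-0.71) and higher at 4h (0.37). In the general list it was 0.00749 for Utf1, 0.0109 for Lin28a, 0.000208 for Dppa2, 0.00024 for Dppa4 and 1.93e-06 for Fgf4. Fgf4, the main FGF ligand of these cells, was at 1.05 at 4h and at -0.34 at 0h.

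In the formative and primed list the edgeR interaction adjusted p was 7.72e-05 for Dnmt3a, 0.028 for Dnmt3b, 2.09e-06 for Dnmt3l, 7.41e-06 for Pou3f1, 0.000407 for Zic2, 0.000499 for Zic5, 0.000622 for Sox3, 5.54e-07 for Sox4, 3.81e-07 for Etv4, 0.00243 for Etv5, 0.00601 for Cdh2, 0.00689 for Tead2, 0.0469 for Foxd3, 0.0145 for Krt18 and 0.0489 for Sall2. Etv4, an ETS factor downstream of ERK, was at 2.06 at 0h and -0.95 at 4h, and Sox4 was at 2.34 at 2h and -2.00 at 4h. Both were thus higher in clone 8 in one group and lower in another, which the additive comparison (0.37 and 0.18, neither called) does not show.

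A single library stood apart within its clone for 4 genes, of 172 groups of 8 libraries checked, and chance alone sets about 1 in 20 groups apart. The gap to the next library was 0.577 of the range for Cbln1 in clone 4 (4h library 1), 0.570 for Ptges in clone 4 (2h library 2), 0.601 for the predicted gene Gm12794 in clone 8 (0h library 1) and 0.550 for Dppa5a in clone 4 (4h library 1). The clone 4 group of 8 spans 4 treatments, so a treatment can also set a library apart.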

How the results depend on the processing

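No gene called in the comparison was called with the opposite sign under any of the alternatives tried. Counts over all genes and over the pluripotency lists that moved by over 1.5 times did so as follows. Library totals gave 2189 called and 507 constant genes, 6 naive and 4 general pluripotency genes, and 418 and 1789 calls at 0h and 4h. Calls at 2h and rev kept their number within 1.5 times but not their directions. At 2h 3789 were higher and 290 lower, against 1770 and 2106 with TMM. At rev 330 were higher and 1990 lower, against 1561 and 1564. Directions within these groups thus rest on the scaling. DESeq2 gave 1465 genes that varied with treatment and 887 and 2571 calls at 0h and 2h. The 0h and 4h libraries alone gave 2541 called genes, 695 that varied and 9 formative and primed genes; the 2h and rev libraries alone gave 4047 constant genes and 44 that varied (the cause was not tested; both pairs need agreement in 2 groups only, and 0h with 4h gave 2020 constant genes). An adjusted p under 0.01 left 1346 that varied, 9 formative and primed genes and 828, 2541, 2047 and 1961 calls at 0h, 2h, 4h and rev. A log2 difference of at least 1 left 836 called, 389 constant and 1351 varying genes, 1 naive, 1 general and 7 formative and primed genes, and 553, 1277, 1247 and 1065 calls within the groups. Thinning to 1.30 M counts left 1297 that varied and 878, 2147, 2005 and 2043 calls within the groups, so depth limited these counts. Of the 28 other lists, library totals moved 11 by over 1.5 times: besides those given above, to 2 calls in the mesoderm, 4 in the X-chromosome, 5 in the BMP and 5 in the ATF4 list. The other settings moved 22 (log2 difference of at least 1), 10 (0h and 4h alone), 7 (minimum count 50), 6 (2h and rev alone), 5 (no filter), 4 (thinning), 3 (adjusted p under 0.01) and 3 (averaged differences).

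Leaving out single libraries gave 4029 to 4512 called genes, 1484 to 1739 constant genes, 1517 to 2510 that varied, 8 to 10 naive, 7 to 8 general and 10 to 13 formative and primed genes, 651 to 1559 calls at 0h, 2662 to 4097 at 2h, 1483 to 3237 at 4h and 1903 to 3252 at rev; where 1 library was left, it was assumed to vary like the others. The count at rev was 1903 without clone 4 library 2 and 1905 without clone 8 library 2.

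Replicate numbers did not pair the clones: deviations of libraries with the same number correlated at -0.0605, 0.0859, 0.00563 and 0.0318 in the 4 groups. A replicate block gave 3770 called genes, 1368 constant (1358 of them shared with the 1405), and 8 naive, 7 general and 10 formative and primed genes.

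Sign changes were looked for among the 161 genes that the naming rule covers. Those that changed sign were genes that were not called or that varied with treatment, and the cause was not tested. With library totals Sall1 was at 0.038, Dnmt3a at 0.056 and Pou3f1 at 0.15. Pou3f1 was at 0.091 with DESeq2, 0.012 with the replicate block and 0.12 with averaged within-group differences, and without a filter Sall1 was at 0.0019 and Dnmt3a at 0.0025. In the 0h and 4h libraries alone Klf2 was at 0.21, Dppa3 at 0.20, Pou5f1 at -0.061, Sall1 at 0.047, Sox4 at -0.98, Etv4 at -0.39 and Sall2 at -0.040. In the 2h and rev libraries alone Esrrb was at -0.010, Dnmt3a at 0.10, Pou3f1 at 0.61, Cdh2 at 0.14 and Bmp4 at 0.0042. Without single libraries Sox4 ran from -0.025 to 0.76, Dnmt3a from -0.076 to 0.055, Pou3f1 from -0.16 to 0.24 and Sall1 from -0.063 to 0.0046. The segment medians ran from -0.50 to -0.38 and from 0.78 to 0.92 on chromosome 3 and from 0.46 to 0.58 on chromosome 6 over all alternatives, that of Y from -0.60 to -0.33 and that of the mitochondrial genome from -0.39 to -0.033.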

Other observations

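Of 26 tested members of the glycolysis and hypoxia list 11 were higher in clone 8 (17.1% of all genes were) and 5 lower (17.8%). The list median was 0.20. The balance was 10 to 4 at 0h (7.03% and 4.65% of all genes) and 8 to 6 at 4h (12.6% and 11.6%). At 2h it was 5 to 6 (13.9% and 16.5%) and at rev 6 to 6 (12.3% each). With scaling by library totals 6 were higher and 1 lower over all groups. Ldha, which makes lactate, ran from 58.1 through 81.8 to 107 CPM in clone 4 and from 124 through 181 to 252 CPM in clone 8, with a constant difference of 1.11 ± 0.12 (edgeR adjusted p = 4.71e-07). Gapdh was constant at 0.72 ± 0.06 and Tpi1 higher at 1.00 ± 0.11, and both lie in the segment of chromosome 6 whose median was 0.49. Pfkm, the muscle-type phosphofructokinase gene, was constant in the opposite direction (-0.99 ± 0.13), and the glucose transporter gene Slc2a1 was at -0.49. Of 18 tested p53 targets 9 were higher in clone 8 (17.1% of all genes were) and 2 lower (17.8%). With library totals 6 were higher and 0 lower. The proapoptotic gene Pmaip1 led them (1.34 ± 0.16), with a difference of 2.71 at 0h and 0.99 at rev.

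Metal and oxidative stress genes leaned towards clone 4. Of 15 tested, 10 were lower in clone 8 (17.8% of all genes were) and 3 higher (17.1%). The metallothionein gene Mt1 ran from 119.7 through 137 to 181 CPM in clone 4 and from 39.5 through 57.3 to 78.0 CPM in clone 8 (-1.33 ± 0.07, edgeR adjusted p = 9.67e-11) without overlap. Gstm1 and Gclm, which serve glutathione, were at -1.46 ± 0.14 and -1.05 ± 0.09, and the inducible heat shock gene Hspa1b was constant in the opposite direction at 1.15 ± 0.21. Gclm lies in the segment of chromosome 3 whose median was -0.47. Few Hox genes could be tested, 6 of 31, and the posterior genes Hoxd9 and Hoxd13 were constant at 1.29 ± 0.18 and 1.43 ± 0.19. The neural factors Sox1 and Olig2 were higher in clone 8 at 1.29 ± 0.20 and 1.29 ± 0.15 and Pax6 was lower at -1.75 ± 0.23. The Wnt antagonist gene Sfrp1 was higher at 1.46 ± 0.11, from 34.8 through 73.5 to 111 CPM in clone 4 and from 179.7 through 190.1 to 217 CPM in clone 8. Rlim, an X-linked ubiquitin ligase gene that acts on Zfp42, was lower at -1.12 ± 0.11.

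The other signalling and metabolic lists went both ways. In the Nodal and TGF-beta list 6 of 19 were higher and 3 lower, with Inhbb, which encodes an activin subunit, at 1.39 ± 0.24, and in the BMP list 4 of 15 were higher and 4 lower, with the target gene Id1 at -1.59 ± 0.31. In the Wnt list 5 of 17 were higher and 5 lower, and in the sterol and fatty-acid list 8 of 27 higher and 8 lower (3 and 0 with library totals), with the isoprenoid enzyme gene Idi1 constant at -0.53 ± 0.11. The ATF4 list held 3 higher and 5 lower of 23 (4 and 1 with library totals), the DNA methylation list 3 and 3 of 18, with the stress gene Gadd45a constant at -1.06 ± 0.15, and the neural list 2 and 1 of 7. Of the X-chromosome list 2 of 15 were higher and 6 lower, of 9 protocadherins 1 was higher, and of 6 antigen presentation genes 0 passed in edgeR or DESeq2, with 2 at an unadjusted p under 0.05 in each. Over all tested genes 17.1% were higher and 17.8% lower.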
